A study of Mus musculus with 2 samples.

Results

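Mesothelin (Msln) and 6 genes read with it were followed through 2 single-cell libraries of mouse lung, 1 after bleomycin and 1 after saline. The 7 genes were chosen by symbol, and all 7 were found among the 28692 genes of both count tables. Msln, Upk1b, Anxa8 and Sncg were chosen with earlier results of these libraries in view, so their levels and their joint detection are given as description. Wt1, Upk3b and Lrrn4 were included as checks for mesothelial cells.

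Both libraries came from mice of 8 to 10 weeks of the genotype Lepr-Cre;Rosa26-tdtomato, in which Cre recombinase driven from the leptin receptor gene switches on the red fluorescent protein tdTomato for good in a cell and its descendants. Live tdTomato-positive cells were sorted from digested lung. The bleomycin group is 1 library, the saline group is 1 library, and the number of mice, the bleomycin dose and the time after it are in none of the labels. With 1 library per group there is no replicate check and no test of treatment, and all intervals below are 95% intervals that cover counting error only.

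Mesothelin is a cell surface glycoprotein held by a lipid anchor and is best known from mesothelium, the cell layer that covers the lung and lines the body cavities. Its known binding partner is the mucin encoded by Muc16. Upk1b encodes uroplakin 1b, a tetraspanin of the bladder surface that is also made by mesothelium. Anxa8 encodes an annexin, a protein that binds membranes in the presence of calcium, and Sncg encodes gamma-synuclein, a small cytosolic protein of neurons and smooth muscle. Wt1 is a transcription factor of mesothelium and its precursors, and Upk3b and Lrrn4 encode membrane proteins used as markers of mesothelial cells. Bleomycin is a drug that injures the lung and is used to set off fibrosis in mice.

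In GENCODE vM21 on mm10, Msln lies at chr17:25748613-25754378 on the minus strand and Upk1b at chr16:38773184-38800328 on the minus strand. Anxa8 lies at chr14:34085981-34100571 on the plus strand and Sncg at chr14:34370274-34374789 on the minus strand, with 269702 bases between them. Wt1 lies at chr2:105126529-105173616 on the plus strand, Upk3b at chr5:136038496-136046487 on the plus strand and Lrrn4 at chr2:132868305-132880891 on the minus strand. Each span is a whole gene, exons and introns together. Anxa8 overlaps A630023A22Rik on the other strand, which had 14 UMIs in bleomycin fibroblasts and 1 UMI in saline fibroblasts.

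Promoter sequence from RefSeq on GRCm38.p6 was at hand for 4 of the 7 genes, and is shown because Anxa8 and Sncg were high in the same cells while Upk3b and Lrrn4 were at or near 0. Each line holds bases before the RefSeq start, 5′ to 3′ on the strand of the gene, and ends earlier where the GENCODE start comes first. The lines of Sncg and Lrrn4 so hold 130 and 221 of the 250 bases before the RefSeq start. The windows searched below also held bases that are not shown. Capitals mark matches to GGAATG, the core letters bound by TEAD factors, on either strand.
Anxa8 (chr14:34085729-34085978, plus strand): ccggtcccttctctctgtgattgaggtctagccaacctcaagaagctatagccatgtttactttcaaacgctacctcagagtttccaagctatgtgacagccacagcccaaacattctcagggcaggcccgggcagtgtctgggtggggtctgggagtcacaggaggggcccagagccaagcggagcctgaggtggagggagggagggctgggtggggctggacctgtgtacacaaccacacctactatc
Sncg (chr14:34374790-34374919, minus strand): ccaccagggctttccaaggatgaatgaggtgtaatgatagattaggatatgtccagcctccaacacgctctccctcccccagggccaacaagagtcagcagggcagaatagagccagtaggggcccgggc
Upk3b (chr5:136038246-136038495, plus strand): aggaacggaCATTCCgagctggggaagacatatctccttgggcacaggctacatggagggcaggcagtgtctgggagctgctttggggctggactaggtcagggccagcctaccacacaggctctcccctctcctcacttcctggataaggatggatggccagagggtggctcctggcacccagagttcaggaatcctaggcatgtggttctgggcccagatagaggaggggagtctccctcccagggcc
Lrrn4 (chr2:132880892-132881112, minus strand): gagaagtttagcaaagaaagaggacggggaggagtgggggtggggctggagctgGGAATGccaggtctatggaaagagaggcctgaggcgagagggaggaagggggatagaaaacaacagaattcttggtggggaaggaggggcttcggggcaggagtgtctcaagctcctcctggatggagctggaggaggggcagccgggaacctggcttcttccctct

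Windows of 300 bases, from 250 before to 50 after the RefSeq start, were searched on both strands for GGAATG, for TGANTCA (AP-1), for GCGTGGG (the core shared by WT1 and EGR factors) and for TATAAA (the TATA box). No window held more than 1 match, so that no matches overlap. The windows of Anxa8 and Sncg held none of the 4 motifs. GGAATG was found once in Upk3b, 241 bases before the RefSeq start and on the opposite strand. It was found once in Lrrn4, 196 bases before the RefSeq start, which lies beyond the end of the line shown. Over 32851 promoter windows of the same length, 14.7% held GGAATG, 7.81% held TGANTCA, 5.04% held GCGTGGG and 13.6% held TATAAA. These matches describe letters and not binding.

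The bleomycin library held 4308 cells after filters, with a median of 12300 UMIs (counted RNA molecules) per cell, and the saline library held 5194 cells with a median of 6303.5. The libraries shared 33 barcode sequences. Cells fell into 26 clusters, and a class name stands for cells like that type. There were 3515 bleomycin and 3559 saline fibroblasts. The bleomycin fibroblasts comprised 2260 fibrotic, 335 alveolar, 200 adventitial and 720 cells of no named kind, and the saline fibroblasts 18, 2806, 712 and 23 of the same kinds. The sort also held cells of other classes, with 415 immune and 187 endothelial cells in the bleomycin library and 727 immune, 156 endothelial and 468 epithelial cells in the saline library. Epithelial cells numbered 5 in the bleomycin library, so no epithelial level is compared.

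Levels are given as UMIs per 1000000 UMIs of a class and library (UPM). Rose and fell are used of a gene with at least 50 UMIs and 20 UPM in the higher group and a ratio of at least 2-fold, and log2 ratios carry a prior of 1 UPM. In fibroblasts, 5.95% of 5885 genes rose by this rule in bleomycin over saline and 9.29% fell. Of the 7 genes, 4 had enough UMIs to be read. Msln, Anxa8 and Sncg rose, and Upk1b did neither, which is a description because earlier results chose them.

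Msln had 1576 UMIs in 355 bleomycin fibroblasts and 1 UMI in 1 saline fibroblast. Its level was 30.3 UPM (28.8 to 31.8) in bleomycin fibroblasts, against 0.0389 UPM (0.000984 to 0.217) in saline fibroblasts. The ratio was 778 with a counting interval of 139 to 30747, and the log2 ratio was 4.91, or 7.77 with a prior of 0.1 UPM and 2.81 with a prior of 5 UPM. The single UMI in saline leaves the size of this ratio loosely bounded, while the 2 intervals of the levels lie far apart.

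Anxa8 had 4870 UMIs in 681 bleomycin fibroblasts and 15 UMIs in 10 saline fibroblasts. Its level was 93.5 UPM (90.9 to 96.1) in bleomycin fibroblasts, against 0.583 UPM (0.326 to 0.962) in saline fibroblasts, a ratio of 160 (97.1 to 287) and a log2 ratio of 5.90. One saline adventitial cell held 6 of the 15 saline UMIs.

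Sncg had 4856 UMIs in 811 bleomycin fibroblasts and 21 UMIs in 19 saline fibroblasts. Its level was 93.2 UPM (90.6 to 95.9) in bleomycin fibroblasts, against 0.817 UPM (0.505 to 1.25) in saline fibroblasts, a ratio of 114 (74.6 to 185) and a log2 ratio of 5.70. No saline fibroblast had more than 2 Sncg UMIs, against up to 46 in a bleomycin fibroblast.

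Upk1b did not share this difference. It had 5294 UMIs in 1815 bleomycin fibroblasts and 2622 UMIs in 1393 saline fibroblasts, which is 102 UPM (98.9 to 104) in bleomycin and 102 UPM (98.1 to 106) in saline. The ratio was 0.997 with a counting interval of 0.951 to 1.04, which includes 1.

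Because bleomycin cells held more UMIs per cell, shares of cells were also taken after every cell was thinned to 2000 UMIs, which left out no fibroblast. Msln was then found in 2.82% (2.30 to 3.42) of bleomycin fibroblasts and in 0 of 3559 saline fibroblasts, which allows a share of up to 0.0843% of cells with a captured UMI at this depth, taking 3 counts as the limit. The unthinned shares were 10.1% in bleomycin and 0.0281% in saline. Anxa8 was found in 8.31% of thinned bleomycin fibroblasts and 0.0562% of thinned saline fibroblasts (unthinned 19.4% and 0.281%), and Sncg in 8.73% and 0.0843% (unthinned 23.1% and 0.534%). Upk1b was found in 16.6% (15.4 to 17.9) of thinned bleomycin fibroblasts and 16.7% (15.5 to 18.0) of thinned saline fibroblasts. The unthinned shares of Upk1b, 51.6% in bleomycin and 39.1% in saline, differed along with the depth.

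**Figure D1:**
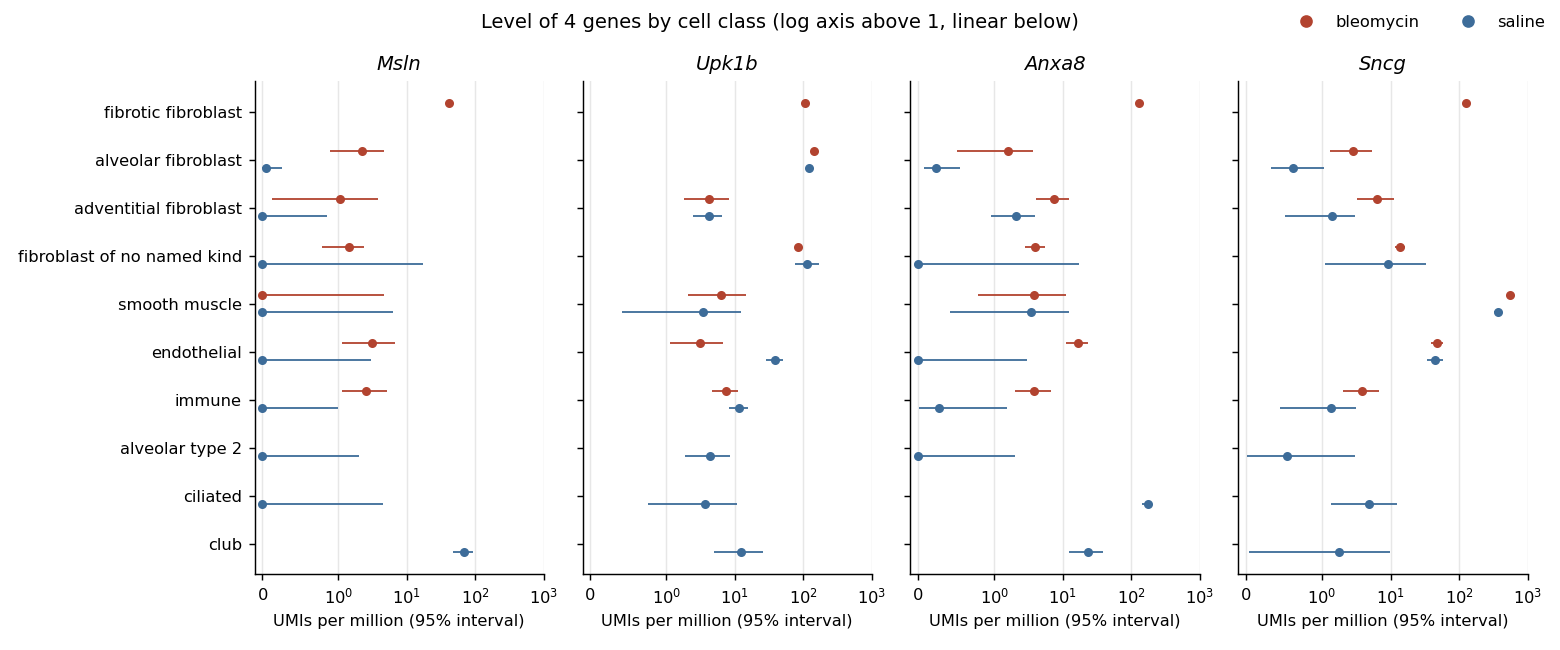
Level of Msln, Upk1b, Anxa8 and Sncg in UPM (horizontal axis, log above 1 and linear below) for 10 cell classes in the bleomycin (red) and saline (blue) libraries, with 95% Poisson intervals, shown where a class had at least 20 cells in a library. Msln, Anxa8 and Sncg are high in fibrotic fibroblasts of the bleomycin library at 41.7, 129 and 126 UPM, while Upk1b in alveolar fibroblasts is at 146 UPM in bleomycin and 123 UPM in saline.

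Droplets also catch free RNA, so the levels in cells that should lack a gene set its background. In bleomycin alveolar macrophages, with a median depth of 6744 UMIs against 13601 in bleomycin fibroblasts, Msln was found in 2.22% of 316 cells (0.895 to 4.51), never with more than 1 UMI in a cell. At 2000 UMIs the share of these macrophages was 0.949% (0.196 to 2.75). Saline macrophages had 0 Msln UMIs in 641 cells. Msln in bleomycin endothelial cells (6 of 187, 3.21%), alveolar fibroblasts (7 of 335, 2.09%) and adventitial fibroblasts (2 of 200) came as single UMIs. The intervals of these shares overlap that of the macrophages, so Msln there was not told apart from background. Whether it is free RNA was not tested. Anxa8 was at 2.85% and Sncg at 2.53% of bleomycin macrophages, again as single UMIs. In saline, Anxa8 was found in 0.156% and Sncg in 0.468% of macrophages, and the 0.281% and 0.534% of saline fibroblasts with these genes had intervals that overlap those shares. The saline adventitial cell with 6 Anxa8 UMIs was above the 1 UMI seen in any saline macrophage. Upk1b was found in 3.17% of bleomycin and 3.90% of saline macrophages, and adventitial fibroblasts, at 3.50% in bleomycin and 2.11% in saline, had intervals that overlap those of the macrophages.

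Outside fibroblasts, Sncg and Anxa8 also had levels over background. Smooth muscle cells held Sncg at 547 UPM (496 to 601) in 96 bleomycin cells and at 371 UPM (323 to 424) in 102 saline cells, with 78.1% and 60.8% of the cells positive. The log2 ratio of 0.56 is under the 2-fold rule, while the 2 counting intervals do not overlap. In endothelial cells Sncg was at 48.1 UPM (38.8 to 58.9) in bleomycin and 45.2 UPM (34.1 to 58.7) in saline, which do not differ beyond counting error. Anxa8 was at 174 UPM (146 to 205) in 121 saline ciliated cells, of which 71 (58.7%) were positive. The 32 Anxa8 UMIs of bleomycin endothelial cells rest on 1 lymphatic cell, which held 21 of them.

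Within the bleomycin library the genes were concentrated in 1 cluster. Cluster 9 was made of 613 bleomycin fibroblasts and no saline cell, and was named fibrotic from its markers. Its leading genes against other lineages included Mmp3, Ptn, Grem1, Mmp13, Igfbp6, Msln and Col6a3. Since Msln helped to form this cluster, its level there is a description. Cluster 9 held 261 of the 369 Msln-positive bleomycin cells (70.7%) and 84.5% of the Msln UMIs. It also held 81.2% of the Anxa8 UMIs and 68.7% of the Sncg UMIs of the library, but 28.0% of the Upk1b UMIs. When the cells were clustered without the 7 genes, the cluster highest in Msln had 717 cells, of which 596 were shared with cluster 9 (97.2% of cluster 9 and 83.1% of the other), and it held 83.5% of the Msln UMIs.

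In cluster 9 Msln stood at 123 UPM (116 to 129) and was found in 42.6% of cells. The next level was 30.7 UPM (25.4 to 36.9) in the bleomycin cells of cluster 5, which had 157 bleomycin and 12 saline cells. Of these 157 cells 28 were positive, and 1 cell held 29 of the 114 UMIs. Cluster 8, a fibrotic cluster of 658 cells, followed with 8.12 UPM (6.30 to 10.3), and there 1 cell held 37 of 68 UMIs. Clusters 7, 0, 1 and 6 stood at 2.89, 2.32, 1.35 and 0.860 UPM, in or below the interval of bleomycin alveolar macrophages (1.25 to 6.43 UPM). Thinned to 5000 UMIs, Msln was found in 25.4% (21.96 to 29.01) of cluster 9 cells, 5.10% (2.23 to 9.79) of cluster 5 cells and 1.26% (0.545 to 2.47) of cluster 8 cells, against 1.57% (0.431 to 3.98) of alveolar macrophages. By this measure cluster 9 alone of the 9 fibroblast clusters with at least 50 bleomycin cells lay clear of the interval of macrophages.

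Among fibroblast clusters, Anxa8 and Sncg were likewise highest in cluster 9. Anxa8 was at 366 UPM (355 to 378) in cluster 9, 104 UPM (93.4 to 114) in cluster 5 and 24.5 UPM (21.0 to 28.4) in cluster 7. Sncg was at 342 UPM (331 to 353) in cluster 9, 87.1 UPM (68.6 to 109) in cluster 11 and 66.6 UPM (58.5 to 75.4) in cluster 5. Cluster 11, with interferon-induced leading genes such as Ifit3 and Rsad2, had 58 bleomycin and 10 saline cells. Its level is that of the bleomycin cells. Cluster 11 rests on few cells, since 25 of its 76 Sncg UMIs were in 1 cell.

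Upk1b had another order. Its highest level was 165 UPM (156 to 174) in cluster 8, followed by 149 UPM (124 to 177) in cluster 11, 148 UPM (135 to 162) in the alveolar cluster 0 and 137 UPM (130 to 144) in cluster 9. The intervals of clusters 8, 11 and 0 overlap, and those of clusters 0 and 9 overlap as well. Cluster 6 was lower at 43.9 UPM and the adventitial cluster 4 lowest at 4.22 UPM. In saline the alveolar clusters 21, 22, 23 and 20 stood at 213, 142, 67.5 and 32.5 UPM, with no overlap between the intervals of neighbours in that order. In alveolar fibroblasts as a class, Upk1b was at 146 UPM (133 to 160) in bleomycin and 123 UPM (118 to 128) in saline, a ratio of 1.19 (1.07 to 1.31) and a log2 ratio of 0.25, which is under the 2-fold rule. The class lies in different clusters in each library: cluster 0 holds 318 of the 335 bleomycin cells and 22 of the 2806 saline cells.

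**Figure D2:**
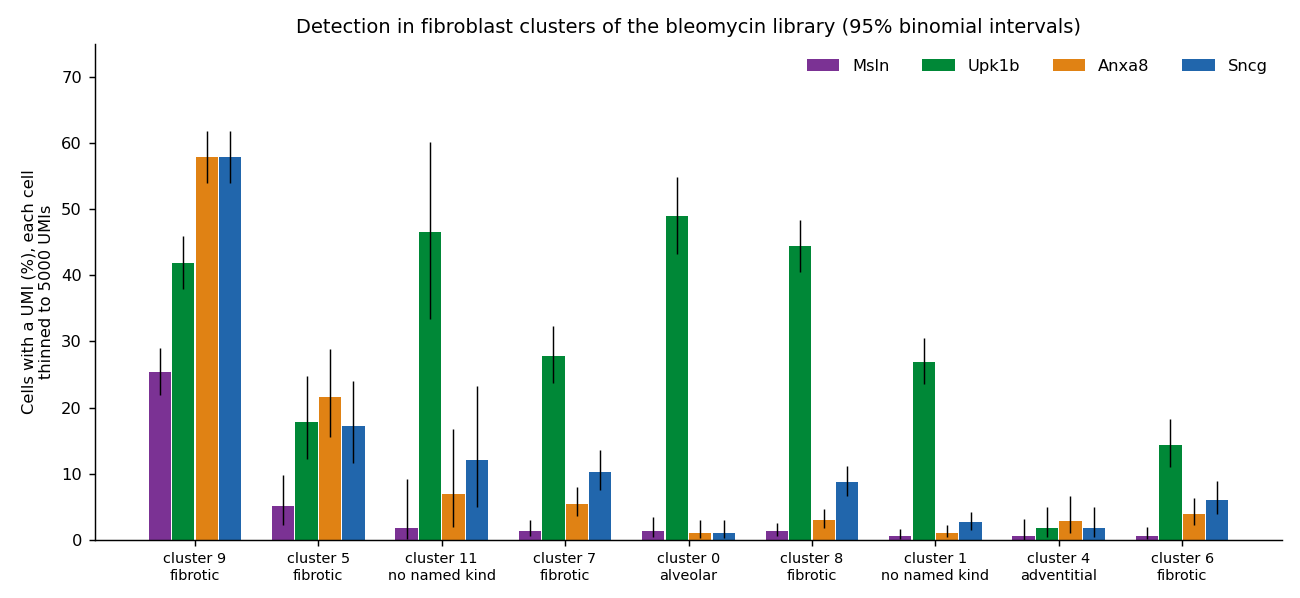
Percentage of cells with at least 1 UMI of Msln, Upk1b, Anxa8 or Sncg (vertical axis) in the 9 fibroblast clusters with at least 50 bleomycin cells, each cell thinned to 5000 UMIs, with bars for shares, lines for 95% binomial intervals, and clusters ordered by the share with Msln. Cluster 9 has the highest shares of Msln (25.4%), Anxa8 (57.9%) and Sncg (57.9%), while Upk1b is found in 41.9% of its cells and in 49.0% of cluster 0.

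Detection per cell was then read within the bleomycin fibroblasts. Of the 3515 cells, 208 (5.92%) held Msln, Anxa8 and Sncg together, and 142 of those 208 held Upk1b as well. Another 235 cells held Anxa8 and Sncg without Msln, 46 held Msln and Anxa8, 37 held Msln and Sncg, and 64 held Msln with neither. None of the 3 was found in 2402 cells (68.3%). In saline, 3530 of 3559 fibroblasts (99.2%) had none of the 3, 1 cell had Anxa8 and Sncg, and no cell had all 3.

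Anxa8 was found in 71.5% (66.5 to 76.2) of the 355 fibroblasts with a Msln UMI and in 13.5% (12.3 to 14.8) of the 3160 without. Sncg was found in 69.0% (63.9 to 73.8) with Msln and 17.9% (16.6 to 19.3) without, and Upk1b in 66.5% (61.3 to 71.4) with and 49.97% (48.2 to 51.7) without. Cells with a Msln UMI were deeper, with a median of 18486 UMIs against 13104.5 in cells without. Thinned to 2000 UMIs, 99 cells kept a Msln UMI, and Anxa8 was found in 47.5% with and 7.17% without, Sncg in 31.3% with and 8.08% without, and Upk1b in 28.3% with and 16.3% without. Thinned to 5000 UMIs, the shares were 66.1% with and 10.5% without for Anxa8, 55.0% with and 13.3% without for Sncg, and 38.6% (31.6 to 46.0) with and 31.8% (30.2 to 33.4) without for Upk1b. The gap was wide for Anxa8 and Sncg at each depth. For Upk1b it was smaller, and its intervals overlap at 5000 UMIs but not at 2000 UMIs (19.7 to 38.2 with, 15.1 to 17.6 without) or without thinning.

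Within cluster 9 the gaps were smaller. At 5000 UMIs, Anxa8 was found in 76.1% (68.6 to 82.6) of 155 cells with Msln and 51.8% (47.1 to 56.4) of 456 cells without. Sncg was found in 62.6% (54.5 to 70.2) with and 56.4% (51.7 to 61.0) without, and Upk1b in 38.7% (31.0 to 46.9) with and 43.0% (38.4 to 47.7) without, so that of the 3 only Anxa8 had intervals that do not overlap. At 2000 UMIs Upk1b went the other way in this cluster, with 32.6% (22.8 to 43.5) with Msln and 19.2% (15.9 to 22.8) without. Thinning was drawn once per depth, and the intervals do not cover the draw. Without thinning, the Pearson correlation of log counts of Upk1b with Msln in this cluster was -0.006. No lasting difference of Upk1b is read from these shares. Outside cluster 9, where 34 cells kept a Msln UMI at 5000 UMIs, Anxa8 was found in 20.6% (8.70 to 37.9) with and 3.75% (3.08 to 4.53) without, and Sncg in 20.6% (8.70 to 37.9) with and 6.25% (5.37 to 7.21) without.

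**Figure D3:**
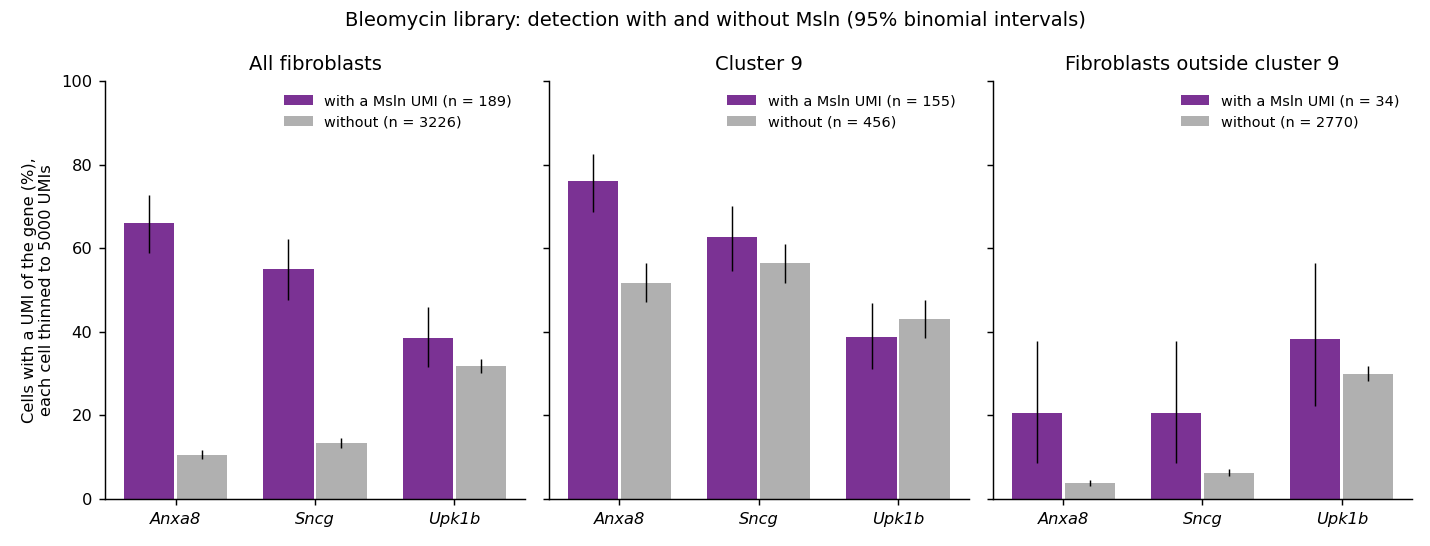
Percentage of bleomycin fibroblasts with a UMI of Anxa8, Sncg or Upk1b (vertical axis) among cells with (purple) and without (grey) a Msln UMI, each cell thinned to 5000 UMIs, with 95% binomial intervals, for all fibroblasts, cluster 9 and the fibroblasts outside it. Anxa8 is found in 66.1% of all fibroblasts with Msln and 10.5% without, and in cluster 9 in 76.1% with and 51.8% without.

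Anxa8 and Sncg were also found together without regard to Msln. Of 681 bleomycin fibroblasts with Anxa8, 65.1% (61.3 to 68.6) held Sncg and 37.3% (33.7 to 41.1) held Msln, against 13.0% and 3.56% of those without Anxa8. Of 1815 fibroblasts with Upk1b, 24.1% held Anxa8 and 27.7% held Sncg, against 14.4% and 18.2% of those without Upk1b. At 2000 UMIs these shares were 8.56% for Anxa8 and 8.39% for Sncg among cells with Upk1b, and 8.26% and 8.80% among cells without, with overlapping intervals. Of 1393 saline fibroblasts with Upk1b, 1 held Msln, 2 held Anxa8 and 6 held Sncg.

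The number of Msln UMIs in a cell went along with the level of Anxa8. Msln was found as a single UMI in 48.2% of the positive fibroblasts, and the 43 cells with 10 or more held 54.5% of its UMIs. In cluster 9 Anxa8 stood at 239 UPM in the 352 cells without Msln, 412 UPM with 1 Msln UMI, 531 UPM with 2 to 4, 568 UPM with 5 to 9 and 652 UPM with 10 to 53. Sncg stood at 305, 385, 364, 386 and 437 UPM over the same steps, and Upk1b at 137, 142, 133, 125 and 143 UPM. Across these steps Upk1b did not move beyond counting error, while all 4 steps with Msln exceeded the cells without it for Anxa8 and Sncg.

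Genes of the fibrotic state did not all go along. Cthrc1, a secreted protein that marks collagen-producing fibroblasts in fibrosis, stood at 261, 330, 275, 266 and 135 UPM in cluster 9 over the same steps, and was lowest in the 37 cells with 10 or more Msln UMIs. Spp1, which encodes the matrix protein osteopontin, stood between 403 and 609 UPM in cluster 9 cells with Msln and at 780 UPM in those without. Over all bleomycin fibroblasts Spp1 was higher, at 2100 UPM in cells with Msln and 5399 UPM in cells without.

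**Figure D4:**
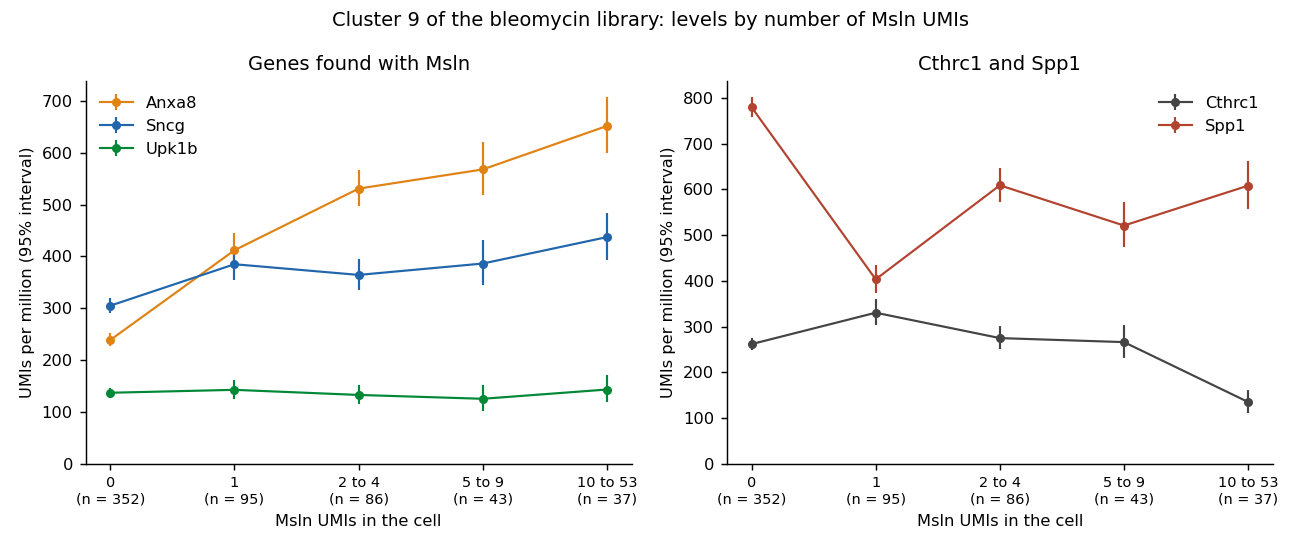
Level in UPM (vertical axis from 0) in cluster 9 cells of the bleomycin library grouped by their number of Msln UMIs (horizontal axis), with 95% Poisson intervals, for Anxa8, Sncg and Upk1b on the left and Cthrc1 and Spp1 on the right. Anxa8 runs from 239 UPM without Msln to 652 UPM with 10 to 53 UMIs, Upk1b stays between 125 and 143 UPM, and Cthrc1 is 135 UPM in the last step.

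The 3 genes taken as checks for mesothelial cells were at or near 0. Wt1 had 13 UMIs in 13 bleomycin fibroblasts and 12 UMIs in 4 saline fibroblasts, at 0.250 UPM (0.133 to 0.427) and 0.467 UPM (0.241 to 0.815). Upk3b had 0 UMIs in both libraries. Lrrn4 had 0 UMIs in the bleomycin library and 1 UMI in the saline library, in a ciliated cell. No barcode had 2 or more of the 3 genes, in 4473 bleomycin and 5455 saline barcodes, filtered ones included. A count of 0 allows a share of up to 0.0671% of bleomycin and 0.0550% of saline barcodes with 2 of these RNAs captured. Since Upk3b was found in no cell at all, these libraries hold no cells in which its capture could be checked.

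Of the 355 Msln-positive bleomycin fibroblasts, 1 (0.28%) held a Wt1 UMI, against 12 (0.38%) of the 3160 without Msln. These shares are alike. In cluster 9 the bleomycin cells held 4 Wt1 UMIs, each in a cell with Anxa8 and without Msln. Of the 613 cells of this cluster, 442 held Anxa8 and 352 had no Msln UMI. The 13 bleomycin cells with Wt1 had 1 UMI each. In saline, 3 adventitial fibroblasts held 11 of the 12 UMIs, at 2, 5 and 4 UMIs, with no Msln or Anxa8 in them.

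A wider list of 24 mesothelial genes was mixed. Of these, 5 had enough UMIs in fibroblasts to be read in bleomycin over saline. Msln and Slpi, a protease inhibitor that epithelial cells also make, rose, Nkain4 fell, and Upk1b and Ezr did neither. The median log2 ratio of the 5 was 0.29, against -0.01 over all genes read, of which 5.95% rose and 9.29% fell. Slpi was at 32.1 UPM in bleomycin and 3.69 UPM in saline fibroblasts, a log2 ratio of 2.82, and Nkain4 at 10.3 UPM in bleomycin and 36.6 UPM in saline, a log2 ratio of -1.73. Ezr, which encodes the membrane linker ezrin, was at 50.7 UPM in bleomycin and 41.3 UPM in saline. Of the 4 list genes read between bleomycin fibroblasts with and without a Msln UMI, Msln itself and Ezr were higher with Msln, Slpi was lower and Upk1b was neither. Over all genes read in this contrast, 2.36% were higher and 4.24% lower. Ezr was at 106 UPM with and 42.2 UPM without (log2 ratio 1.31), and Slpi at 15.5 UPM with and 34.6 UPM without (-1.11). Among 613 cells of cluster 9, the keratin genes Krt8, Krt19 and Krt18 had 0, 1 and 2 UMIs, Krt7 had 11, and Calb2 and Cdh1, which encode calretinin and E-cadherin, had 0. Other list genes were detected in this cluster, with 1005 UMIs of Ezr, 218 of Slpi, 110 of Nkain4 and 33 of Tbx18. Ezr and Tbx18 were at 91.8 and 3.01 UPM there, against 50.7 and 1.54 UPM in all bleomycin fibroblasts. Slpi and Nkain4 were at 19.9 and 10.0 UPM there, against 32.1 and 10.3 UPM. Muc16, Bnc1 and Itln1 had 0 UMIs in all cells of both libraries. At least 3 of 10 core mesothelial genes, some of which epithelial cells also express, were found in 3 bleomycin barcodes, all fibroblasts, and in 9 saline barcodes, none of them fibroblasts.

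**Figure D5:**
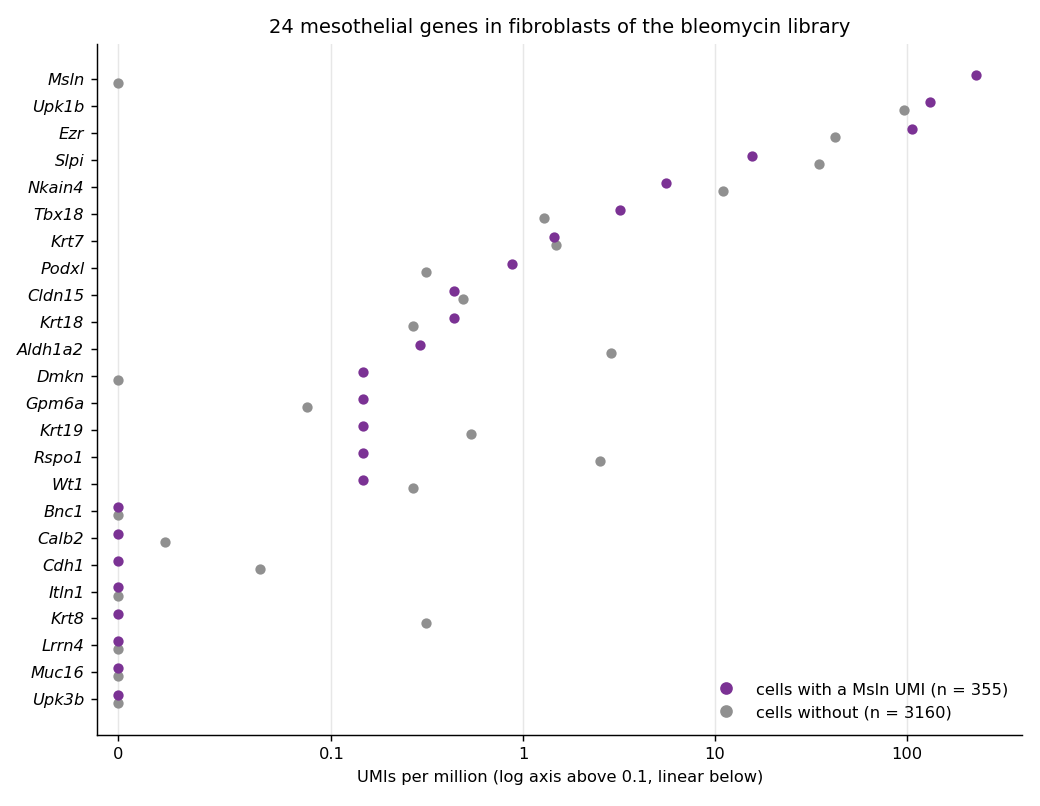
Level in UPM (horizontal axis, log above 0.1 and linear below) of 24 mesothelial genes in bleomycin fibroblasts with (purple) and without (grey) a Msln UMI, in order of the level with Msln. Msln, Upk1b and Ezr are at 229, 132 and 106 UPM in cells with Msln, and 8 genes (Bnc1, Calb2, Cdh1, Itln1, Krt8, Lrrn4, Muc16 and Upk3b) are at 0 there.

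Relatives of the 4 detected genes were read in fibroblasts as well. Of 12 annexins, 9 had enough UMIs, 4 rose and none fell in bleomycin over saline, with a median log2 ratio of 0.13. Over all genes read, 5.95% rose and 9.29% fell. Besides Anxa8, the calcium-dependent membrane binders Anxa3, Anxa1 and Anxa2 rose, at 69.0, 931 and 1154 UPM in bleomycin and 7.78, 240 and 457 UPM in saline. The log2 ratios were 2.99 for Anxa3, 1.95 for Anxa1 and 1.33 for Anxa2. Anxa5 was at 728 UPM in bleomycin and 822 UPM in saline, a log2 ratio of -0.18. Sncb, which encodes beta-synuclein, had 0 UMIs in the fibroblasts of both libraries. Of 6 uroplakins only Upk1b had enough: Upk1a had 20 UMIs in bleomycin and 12 in saline, Upk3bl 3 and 0, and Upk2 and Upk3a 0. Thy1, which encodes an anchored surface protein that can bind mesothelin, rose to 23.8 UPM in bleomycin, against 5.33 UPM in saline, a log2 ratio of 1.97. It was at 25.9 UPM in bleomycin fibroblasts with Msln and 23.5 UPM in those without. Mslnl, the mesothelin-like gene, had 1 UMI in each library, and of 5 Lrrn genes none had enough UMIs.

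Bleomycin fibroblasts with a Msln UMI were then set against those without. By the same size rule, 2.36% of 5467 genes were higher and 4.24% lower in cells with Msln, which describes 2 sets of cells from 1 library. Of the 355 fibroblasts with a Msln UMI, 261 were in cluster 9, so the contrast largely sets cluster 9 against other fibroblasts. The same holds for the other contrasts of bleomycin fibroblasts with and without Msln. Anxa8 was at 417 UPM with Msln and 44.3 UPM without (log2 ratio 3.21), Sncg at 312 and 59.9 UPM (2.36) and Upk1b at 132 and 96.9 UPM (0.44). Among annexins, Anxa2 at 2418 UPM with and 961 UPM without and Anxa1 at 1656 UPM with and 821 UPM without were also higher, and 6 of the 9 were neither.

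All 12 genes of a fibrotic fibroblast list rose in bleomycin over saline, with a median log2 ratio of 5.13; the list was drawn up with results of these libraries known. Between cells with and without Msln, 1 of the 12 was higher, 3 were lower and 8 were neither. Over all genes read, 5.95% rose in bleomycin over saline, and 2.36% were higher and 4.24% lower with Msln. Spp1, Tnc, Ltbp2 and Col1a1 were also among the markers that named the fibrotic kind. S100a4, a calcium-binding protein of motile cells, was at 4487 UPM with Msln and 1306 UPM without (log2 ratio 1.78). Within cluster 9 the gap was smaller, with S100a4 at 3912 UPM in the 352 cells without Msln. Over the steps with Msln it stood between 4779 and 5786 UPM there. The log2 ratio of Spp1 was -1.36. Tnc, which encodes the matrix protein tenascin C, was at 77.3 UPM with and 220 UPM without (-1.50), and Ltbp2, a microfibril protein, at 50.2 UPM with and 192 UPM without (-1.91). Col1a1, the main chain of collagen I, was at 6005 UPM with and 5374 UPM without, and Acta2, smooth muscle actin, at 1677 UPM with and 1383 UPM without. Within cluster 9 Col1a1 was not higher with Msln. It was at 6654 UPM in cells without Msln there, and at 6223, 6653, 6519 and 5297 UPM over the steps with Msln.

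All 8 genes of an alveolar fibroblast list fell in bleomycin over saline, with a median log2 ratio of -2.40. Of the 6 with enough UMIs, 5 were lower in cells with Msln, among them Ces1d at 12.8 UPM with and 77.2 UPM without (log2 ratio -2.51), Inmt, a methyltransferase, at 186 UPM with and 706 UPM without (-1.92) and Tcf21, a transcription factor of lung fibroblasts, at 35.3 UPM with and 113 UPM without (-1.65). Limch1 was neither. Of 7 adventitial genes read, Ly6c1 was higher at 276 UPM with and 68.4 UPM without, Pi16, Ccl11 and Col14a1 were lower and 3 were neither. Pi16 was at 1.60 UPM with and 23.1 UPM without (-3.21). Of 7 cell cycle genes read, Ube2c, Cdk1 and Ccna2 were higher and 4 were neither, with Ube2c at 93.1 UPM with and 38.7 UPM without. Cluster 5, with Mxd3 and Hist1h2ap among its leading genes, held 28 of the bleomycin cells with Msln. Whether cell cycle genes differ with Msln within a cluster was not tested.

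Genes whose level per cell was most like that of Msln were ranked by Pearson correlation of log counts over the 3515 bleomycin fibroblasts, all from 1 library and sharing its depth, among 11959 genes. The closest 10 were Anxa8 (r = 0.54), Sbsn (0.46), Cdh13 (0.46), Igfbp6 (0.43), Aqp1 (0.41), Cd9 (0.38), Lims2 (0.38), Fxyd5 (0.38), Sncg (0.37) and Mustn1 (0.36). Upk1b was at rank 753 with r = 0.07, and Wt1, Upk3b and Lrrn4 were in too few cells to be ranked. Spearman correlation shared 7 of the 10, thinning to 5000 UMIs shared 7, and cluster 9 alone shared 6. Within cluster 9 Anxa8 stayed at rank 1 (r = 0.40), while Sncg was at rank 178 (r = 0.12).

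Of these 10 genes, 9 rose in bleomycin over saline fibroblasts, against 5.95% of all genes read. They were picked within bleomycin cells for likeness to a gene with 1 saline UMI, so this count is a description. Sbsn, which encodes the secreted protein suprabasin, was at 45.2 UPM in bleomycin and 9.14 UPM in saline, and Aqp1, a water channel, at 218 UPM in bleomycin and 90.7 UPM in saline. Igfbp6, a binding protein of insulin-like growth factors, was the exception at 614 UPM in bleomycin and 784 UPM in saline, a log2 ratio of -0.35. Igfbp6 is also among the leading genes of the adventitial cluster 4. In bleomycin fibroblasts it was at 2133 UPM in cells with Msln and 383 UPM in cells without.

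Genes beside the members were read in the same way, where 5.95% of all genes read in fibroblasts were higher in bleomycin and 9.29% lower. Within 500 kb of Msln, 11 genes had enough UMIs in fibroblasts, with none higher, Jmjd8 lower and log2 ratios from -1.16 to 0.45. Around Upk1b, Pla1a was higher (2.58) and B4galt4 lower (-1.18) among 6 genes read. Anxa8 and Sncg, which both rose, lie within this distance of each other on chromosome 14. Between them the files list 7 genes, of which 2 had enough UMIs: Glud1, glutamate dehydrogenase, at 156 UPM in bleomycin and 82.2 UPM in saline (log2 ratio 0.92) and the ribosomal pseudogene Rpl23a-ps3 (-0.53). Neither passed the rule in bleomycin over saline. Within bleomycin fibroblasts, Glud1 was at 367 UPM with Msln and 124 UPM without (log2 ratio 1.56). Rpl23a-ps3 was at 242 UPM with Msln and 261 UPM without (-0.11). Gdf10, beyond the interval, was lower at 11.9 UPM in bleomycin and 63.0 UPM in saline.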

How the data were processed

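Sorted tdTomato-positive lung cells were measured as 2 droplet libraries (3' v2 chemistry of 10x Genomics, per the labels). The authors deposited raw UMI counts per gene and barcode, made with Cell Ranger 2.1.1 on mm10, per the submitters' processing notes; the release of the annotation, strand handling or cell calling is not given in the sources used here. Totals were 61537182 UMIs in 4473 bleomycin barcodes and 37570380 in 5455 saline barcodes.

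Barcodes with under 500 genes, under 1000 UMIs or over 10% mitochondrial UMIs were left out (5 bleomycin, 23 saline). Scrublet's own threshold marked 5 and 9 barcodes and was not used; the highest scores, at 0.8% per 1000 barcodes, were left out instead (160 bleomycin, 238 saline). With scanpy 1.11.5, 2000 variable genes, 30 components and 15 neighbours were used for Leiden clustering (resolution 1, no integration of libraries), which gave 26 clusters. Clusters were named from marker lists for 20 cell classes, with naming thresholds chosen after the clusters were seen. Cluster 10 stayed unnamed.

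UMIs were summed per class and library. Intervals are exact Poisson (levels), conditional binomial (ratios) and Clopper-Pearson (shares). Thinning was drawn once per depth, which the intervals of thinned shares do not cover. Lists were summarised by counts and median, and the rules were tested on simulated data. Members and lists were chosen with earlier results of these data known. Named genes were the 7 members, their families, list genes past the size rule and the 10 genes most like Msln among those found in at least 50 bleomycin fibroblasts; other genes were named after their values were seen. Some genes these rules picked are not reported here. Alternatives were other priors, filters, thinning depths, doublet settings and clustering without the 7 genes.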

Additional observations from a re-analysis of the deposited data

How the results depend on the processing

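The log2 ratios of Msln, Anxa8, Sncg and Upk1b in fibroblasts kept their direction and their side of the size rule under the 10 alternatives tried, but their size moved: Msln ranged from 2.81 to 7.77, Anxa8 from 4.14 to 7.10, Sncg from 4.08 to 6.67 and Upk1b from -0.016 to -0.0015, the ends of the 3 first ranges coming from the prior. Wt1, with too few UMIs to be read, ranged from -0.70 to 0.01. Shares of cells moved with depth, by construction. The share of bleomycin fibroblasts with Msln, 2.82% at 2000 UMIs, was 5.53% at 5000 UMIs (chosen after seeing the data), 10.1% without thinning and 5.23% for at least 2 UMIs without thinning. Among Msln-positive bleomycin fibroblasts, Upk1b was found in 28.3% at 2000 UMIs, 38.6% at 5000 and 66.5% without thinning, Anxa8 in 47.5%, 66.1% and 71.5%, and Sncg in 31.3%, 55.0% and 69.0%. Clustering without the 7 genes was also chosen after seeing the data. No paired analysis was possible because each group is 1 library, and leaving out a replicate was not possible for the same reason. Msln in saline fibroblasts rests on 1 UMI, and levels in classes of under 100 cells have wide counting intervals.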

Other observations

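Upk1b also differed in endothelial cells. It had 6 UMIs in 6 of 187 bleomycin endothelial cells and 48 UMIs in 28 of 156 saline endothelial cells, at 3.10 UPM (1.14 to 6.75) and 38.7 UPM (28.5 to 51.3). The ratio of 0.0801 had a counting interval of 0.0280 to 0.188, but 48 UMIs are under the 50 that the size rule asks for. All 48 saline UMIs lay in cluster 3, an endothelial cluster with Cldn5 and Gpihbp1 among its leading genes. There 28 of 109 saline cells (25.7%) were positive with up to 4 UMIs. In the same cluster 4 of 99 bleomycin cells were positive with 1 UMI each. Saline alveolar macrophages were positive in 3.90%, at a median of 4170 UMIs against 8136 in saline cells of cluster 3. Against alveolar macrophages, the share in this cluster is over background in saline and not in bleomycin. That background depends on the class taken. Saline monocytes or interstitial macrophages held Upk1b in 11 of 86 cells at 22.1 UPM, and bleomycin ones in 9 of 99 cells at 15.2 UPM.

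In the unnamed cluster 10, whose leading genes include Hhip, Fgf18 and Myh11, Sncg was at 117 UPM (84.1 to 159) in 42 bleomycin cells and 400 UPM (345 to 461) in 132 saline cells. Saline cells of cluster 19, an endothelial cluster with Vwf and Edn1 among its leading genes, held Sncg in 14 of 26 cells. Msln had 38 UMIs in 5 of 38 saline club cells, the secretory cells of the airway, and 1 of these cells held 30 of them.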
